A study of Mus musculus with 28 samples.

Results

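The comparison of MOZ-TIF2 cells with empty-vector cells takes up 4 of the 28 samples of a mouse leukaemia series: both bulk RNA libraries of each group, over every gene of their shared count table. Both groups began as c-Kit+ haematopoietic stem and progenitor cells (HSPCs) from C57Bl/6 bone marrow that received a retrovirus, Ty1.MOZ-TIF2 in the MOZ-TIF2 cells and the vector alone in the controls. Cells of both groups were selected by FACS for GFP and grown 4 days in medium with cytokines, which the labels do not name. The labels call the MOZ-TIF2 cells a cell line and the empty-vector cells differentiated HSPCs. Freshly isolated, untransduced c-Kit+ HSPCs from the same strain (2 libraries) share the fit and are given beside the results as a level before culture, with no test. Per the labels, polyA RNA was made into strand-specific libraries. Nothing in the labels says whether replicates came from separate transductions or mice, so p-values measure only the spread between these libraries, which may be technical. The question put to these libraries is which RNAs the fusion cells hold at other levels than control cells of the same origin and selection. Both were grown 4 days, but the labels do not show that cytokines or total time in culture were alike.

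MOZ-TIF2 is a fusion oncoprotein of acute myeloid leukaemia that joins the histone acetyltransferase MOZ (gene Kat6a) to the nuclear receptor coactivator TIF2 (gene Ncoa2), whose partners include the acetyltransferases CBP and p300. It gives myeloid progenitors lasting self-renewal in culture and is known for keeping Hoxa9, Hoxa10 and Meis1 expressed. Normal c-Kit+ progenitors in cytokine medium instead mature, and under KIT ligand and interleukin-3 they yield mast cells, whose granules store chymase, tryptase, carboxypeptidase A3, histamine and heparin. Granulocyte precursors store other proteases (neutrophil elastase, proteinase 3, cathepsin G) and myeloperoxidase in their primary granules, under C/EBP factors, PU.1 and GFI1.

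The MOZ-TIF2 libraries totalled 34463851 and 33010700 counts, against 23656631 and 34260108 for empty-vector cells, and 12397486 and 15550960 for fresh cells. Levels below are CPM (counts scaled to a common library total, with TMM correction), and differences are MOZ-TIF2 over empty vector on the log2 scale with their standard errors. Over the markers checked, the summed level of 10 mast cell markers was 53.5 and 37.5 CPM in MOZ-TIF2 cells, against 57020 and 85300 CPM in empty-vector cells, and that of 6 granulocyte precursor markers was 15470 and 9054 CPM in MOZ-TIF2 cells, against 25.5 and 234.7 CPM in empty-vector cells. Pax5, a B cell factor, had no count in either group, and the erythroid markers summed to 0.246 and 0.117 CPM in MOZ-TIF2 cells, against 18.1 and 4.25 CPM in empty-vector cells. The empty-vector cells, labelled as differentiated HSPCs, thus held mast cell RNA far above that of the fresh HSPCs, at 261 and 315 CPM for the same 10 markers. Replicates stood apart within both groups. Replicate 2 of MOZ-TIF2 held more RNA of late neutrophil genes, replicate 1 of the empty vector more of antigen presentation genes, and replicate 2 of the empty vector more of the granule genes that were high in MOZ-TIF2 cells. In a bulk library, fewer cells of a type and less RNA per cell cannot be told apart.

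Of 15224 tested genes, edgeR's quasi-likelihood test called 4486 (29.5%) at an adjusted p under 0.05, 2023 (13.3%) higher and 2463 (16.2%) lower in MOZ-TIF2 cells. Counts of called members by list are to be read against these shares. Over 10-fold differences made up 627 of the rises and 1011 of the falls, and the median log2 difference of the tested genes was 0.03. With library totals in place of TMM scaling that median was 0.31, and 60.5% of calls were rises in place of 45.1%. The libraries of the groups did not overlap for 65% of tested genes, so lack of overlap by itself marks out no gene below. Leaving out either fresh library cut the calls to 2498 or 2411, and leaving out replicate 1 of the empty vector cut them to 2847.

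RNA of the fusion partners gave no check of the labels, since no label says whether the transgene holds mouse or human sequence. Kat6a had 82.9 and 109 CPM in MOZ-TIF2 cells, against 175 and 122 CPM in empty-vector cells (log2 difference -0.63 ± 0.27, adjusted p = 0.128). Ncoa2 had 89.8 and 105 CPM in MOZ-TIF2 cells, against 153 and 113 CPM in empty-vector cells (log2 difference -0.45 ± 0.26, adjusted p = 0.248). Neither was called. Among 13 genes of MOZ, TIF2, their paralogues and partners, Brpf1 and Ncoa1 rose and Ncoa3 fell; the calls on Brpf1 and Ncoa3 were lost in 4 and 5 of 6 refits without 1 library (adjusted p up to 0.0819 and 0.12). Ncoa1, a paralogue of TIF2, had 23.3 and 29.8 CPM in MOZ-TIF2 cells, against 6.97 and 4.81 CPM in empty-vector cells (log2 difference 2.18 ± 0.31, adjusted p = 0.00487). Calls made up 23.1% of the 13 genes, against 29.5% of all tested genes.

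HoxA genes were strongly higher. Of 18 tested HoxA genes and TALE homeobox partners, 9 rose and 4 fell, against 13.3% and 16.2% of all tested genes, and their median difference was 4.28 (3.83 with genes that have no count in a group set at their lower bound). Among the risers were Hoxa3, Hoxa4, Hoxa5, Hoxa6, Hoxa7, Hoxa9, Hoxa10 and the TALE gene Pknox2. Hoxa9, the homeobox factor most tied to myeloid leukaemia, had 224 and 226 CPM in MOZ-TIF2 cells, against 0.0478 and 0.657 CPM in empty-vector cells (log2 difference 9.19 ± 0.82, adjusted p = 0.00102). Fresh cells had 18.4 and 11.3 CPM, so both MOZ-TIF2 libraries lay above the fresh progenitors too, while the empty-vector libraries were near 0. Hoxa7, its neighbour in the cluster, had 21.9 and 6.50 CPM in MOZ-TIF2 cells and no count in empty-vector cells, at least 236-fold higher when the group is set at a floor of 3 counts. Hoxa5 had 11.0 and 4.58 CPM in MOZ-TIF2 cells, against 0 and 0.0346 CPM in empty-vector cells, a ratio of 394 (counting interval 70.5 to 15610). Hoxa10 had 219.5 and 105 CPM in MOZ-TIF2 cells, against 0 and 5.08 CPM in empty-vector cells (log2 difference 5.95 ± 1.45, adjusted p = 0.0274). MOZ-TIF2 replicate 1 was the higher of its group for these last 3 genes, and the groups did not overlap. Hoxa3 and Hoxa6, named after their values were seen, had no count in empty-vector cells; their MOZ-TIF2 levels were higher by at least 76.3-fold and 34.5-fold. The call on Hoxa10 was lost without MOZ-TIF2 replicate 1 or either fresh library (adjusted p up to 0.0801), and that on Hoxa6 without fresh replicate 2 (adjusted p = 0.0512).

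Meis1, the HOXA9 cofactor of myeloid leukaemia, had 111 and 66.8 CPM in MOZ-TIF2 cells, against 100.2 and 88.7 CPM in empty-vector cells (log2 difference -0.09 ± 0.35, adjusted p = 0.876). Its groups overlapped, and both lay above the fresh cells at 21.5 and 12.5 CPM. Other TALE genes were lower, among them Meis2, Meis3 and Pbx3. Meis2 had 0 and 0.0875 CPM in MOZ-TIF2 cells, against 22.3 and 21.7 CPM in empty-vector cells. Meis3 had 0.109 and 0.467 CPM in MOZ-TIF2 cells, against 14.2 and 13.9 CPM in empty-vector cells. Pbx3 had 2.70 and 1.93 CPM in MOZ-TIF2 cells, against 16.6 and 15.8 CPM in empty-vector cells. The empty-vector replicates were close to each other for these genes, and both lay above MOZ-TIF2. Pbx2 did not pass the test, with 51.5 and 72.6 CPM in MOZ-TIF2 cells, against 62.1 and 60.7 CPM in empty-vector cells.

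**Figure D1:**
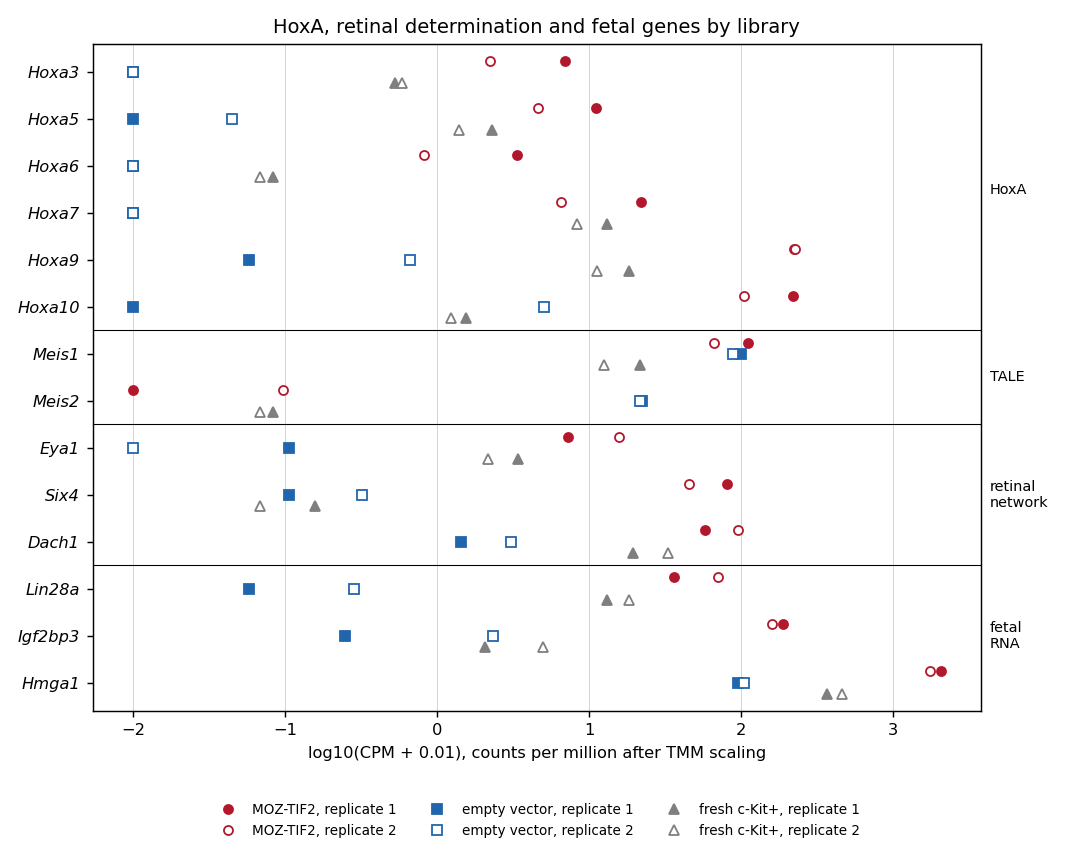
Levels of HoxA, TALE, retinal determination and fetal genes in each library, as log10(CPM + 0.01), with filled symbols for replicate 1 and open symbols for replicate 2; circles are MOZ-TIF2, squares empty vector and triangles fresh c-Kit+ cells. Hoxa9 and Six4 lie far to the right of both empty-vector symbols, and Meis1 has its 2 groups on top of each other.

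The retinal determination network is a group of EYA phosphatases with their partners of the Six4 and Dach1 families first known from eye development. Of 9 tested members, 4 rose, among them Eya1, Six4 and Dach1, and 3 fell (Eya2, Eya4 and Six5). That is 77.8% called, against 29.5% of all tested genes. Six4, a homeobox factor, had 80.5 and 45.5 CPM in MOZ-TIF2 cells, against 0.0955 and 0.311 CPM in empty-vector cells (log2 difference 8.16 ± 0.63, adjusted p = 0.000659). Six4 was near 0 in fresh cells as in empty-vector cells, with 0.147 and 0.0582 CPM in fresh cells. Eya1 had 7.24 and 15.6 CPM in MOZ-TIF2 cells, against 0.0955 and 0 CPM in empty-vector cells, a ratio of 282 (counting interval 77.7 to 2330). Dach1, a co-repressor, had 58.1 and 96.3 CPM in MOZ-TIF2 cells, against 1.43 and 3.04 CPM in empty-vector cells (log2 difference 5.09 ± 0.53, adjusted p = 0.00176). In the other direction, Six5 had 1.12 and 0.788 CPM in MOZ-TIF2 cells, against 10.7 and 9.85 CPM in empty-vector cells. For Six4, Dach1 and Six5 the replicates of a group lay closer to each other than to the other group. The groups did not overlap for Eya1. Eya3 did not pass the test, with 71.9 and 82.8 CPM in MOZ-TIF2 cells, against 80.5 and 83.9 CPM in empty-vector cells.

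RNA-binding and chromatin genes of fetal haematopoiesis rose in 5 of 8 tested members (Igf2bp1, Igf2bp3, Lin28a, Hmga1 and Arid3a), with none lower. That is 62.5%, against 13.3% of all tested genes called higher. The call on Igf2bp1 was lost in all 6 refits without 1 library (adjusted p 0.0551 to 0.0838) and by DESeq2 (adjusted p = 0.0565), which called Igf2bp2 lower (adjusted p = 0.0262). Lin28a, which blocks let-7 maturation, had 36.5 and 71.1 CPM in MOZ-TIF2 cells, against 0.0478 and 0.277 CPM in empty-vector cells (log2 difference 8.22 ± 0.72, adjusted p = 0.00097). Igf2bp3, an RNA-binding protein of fetal progenitors, had 188 and 159.6 CPM in MOZ-TIF2 cells, against 0.239 and 2.32 CPM in empty-vector cells (log2 difference 7.02 ± 0.97, adjusted p = 0.0045). Hmga1, an architectural chromatin protein, had 2065 and 1748 CPM in MOZ-TIF2 cells, against 96.2 and 105 CPM in empty-vector cells (log2 difference 4.24 ± 0.29, adjusted p = 0.000494). Both MOZ-TIF2 libraries also lay above both fresh libraries for the 3 genes, which had 13.1 and 18.3 CPM of Lin28a, 2.07 and 5.01 CPM of Igf2bp3 and 368 and 460.3 CPM of Hmga1 in fresh cells. Hmga2 did not pass the test, with 0.273 and 0.846 CPM in MOZ-TIF2 cells, against 0.143 and 0.104 CPM in empty-vector cells.

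The 12 largest rises named by size were Hoxa7, Hoxa9, Lin28a, Six4, Pde2a, Elavl2, Bcat1, Olfm4, Adam3, P2rx3, Pyroxd2 and Plppr3. Elavl2, a neuronal RNA-binding protein, had 12.1 and 79.2 CPM in MOZ-TIF2 cells, against 0 and 0.104 CPM in empty-vector cells, a ratio of 741 (counting interval 253 to 3594). It was near 0 in fresh cells too, at 0 and 0.0582 CPM. Plppr3, a membrane protein studied in neurons, had 168 and 177 CPM in MOZ-TIF2 cells, against 0.143 and 1.00 CPM in empty-vector cells (log2 difference 8.14 ± 0.71, adjusted p = 0.000951). Pde2a, a cyclic nucleotide phosphodiesterase, had 14.6 and 61.0 CPM in MOZ-TIF2 cells, against 0 and 0.0691 CPM in empty-vector cells, a ratio of 923 (counting interval 255 to 7623). Pde2a was below its fresh level of 219 and 225 CPM, and MOZ-TIF2 replicate 2 was well above replicate 1 for both Elavl2 and Pde2a.

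The 12 largest falls were Cobl, Tjp1, Arhgap20, Ikzf2, Cma1, Slc18a2, Tpsb2, Fcer1a, Cpa3, Pgr, Bmp7 and Il1rl1. Cobl, an actin nucleator, had no count in MOZ-TIF2 cells, against 474 and 503 CPM in empty-vector cells, and was at least 11500-fold lower. Tjp1, a tight junction scaffold, had no count in MOZ-TIF2 cells, against 382 and 314 CPM in empty-vector cells and 9.81 and 13.4 CPM in fresh cells. Pgr, the progesterone receptor, had no count in MOZ-TIF2 cells, against 80.1 and 196 CPM in empty-vector cells. These RNAs were plentiful in both empty-vector libraries and unseen in both MOZ-TIF2 libraries.

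Proteases of mast cell and basophil granules fell. Of 11 tested mast cell and basophil proteases, 10 fell and none rose, with a median difference of -13.71. The summed level of the 3 basophil markers Mcpt8, Prss34 and Cd200r3, of which Mcpt8 and Prss34 belong to the protease list, moved with them, at 3.96 and 2.95 CPM in MOZ-TIF2 cells, against 747 and 714.5 CPM in empty-vector cells, and their part in the list's falls was not tested. Cma1, a mast cell chymase, had 0.109 and 0.758 CPM in MOZ-TIF2 cells, against 16497 and 18052 CPM in empty-vector cells (log2 difference -15.28 ± 1.10, adjusted p = 0.000571). Cpa3, the mast cell carboxypeptidase, had 0.273 and 1.52 CPM in MOZ-TIF2 cells, against 22819 and 36330.2 CPM in empty-vector cells (log2 difference -15.01 ± 1.18, adjusted p = 0.0007). Fresh cells had 29.6 and 25.0 CPM of Cpa3, above MOZ-TIF2 and far below the empty vector. Tpsb2, a mast cell tryptase, had 0.0819 and 0.583 CPM in MOZ-TIF2 cells, against 7205 and 15308 CPM in empty-vector cells (log2 difference -15.04 ± 1.25, adjusted p = 0.000826). Gzmb, the cytotoxic granule protease that mouse mast cells also make, had 0.0546 and 0.175 CPM in MOZ-TIF2 cells, against 2135 and 1281 CPM in empty-vector cells (log2 difference -13.82 ± 0.70, adjusted p = 0.000313). The MOZ-TIF2 libraries were at or near 0 for these 4 genes while the empty-vector libraries ranged from 1281 CPM upward. Tpsab1, a near copy of Tpsb2, had 0 and 0.263 CPM in MOZ-TIF2 cells, against 3.39 and 5786 CPM in empty-vector cells and missed the threshold (log2 difference -14.41 ± 4.08, adjusted p = 0.0529), with its empty-vector libraries far apart. How reads were split between near copies (Tpsab1 and Tpsb2, and later Csf2rb and Csf2rb2, or Ly6c1 and Ly6c2) was not tested.

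Among 16 primary granule genes of granulocyte precursors, 7 rose (Prtn3, Ctsg, Prss57, Ms4a3, Plac8, Gstm1 and Igsf6) and 2 fell (Cst7 and Serpinb1a), with a median of 4.22. Ctsg, cathepsin G, had 2753 and 1018 CPM in MOZ-TIF2 cells, against 21.1 and 55.7 CPM in empty-vector cells (log2 difference 5.62 ± 0.74, adjusted p = 0.00388). Prss57, a serine protease of neutrophil granules, had 70.5 and 65.6 CPM in MOZ-TIF2 cells, against 0 and 0.760 CPM in empty-vector cells (log2 difference 7.34 ± 0.95, adjusted p = 0.00362). Ms4a3, a membrane protein of granulocyte-monocyte progenitors, had 1083 and 481 CPM in MOZ-TIF2 cells, against 3.82 and 17.6 CPM in empty-vector cells (log2 difference 6.18 ± 0.90, adjusted p = 0.00534). Replicate 2 was the higher empty-vector library for all 3, and still lay far below MOZ-TIF2. Prtn3, proteinase 3, named after its values were seen, had 2141 and 1258 CPM in MOZ-TIF2 cells, against 0.478 and 36.1 CPM in empty-vector cells (log2 difference 6.53 ± 1.74, adjusted p = 0.0359). Its call was lost without MOZ-TIF2 replicate 1 or either fresh library (adjusted p up to 0.0895).

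Myeloperoxidase and elastase RNA missed the threshold of edgeR's test. Mpo, myeloperoxidase, had 7557 and 5360.3 CPM in MOZ-TIF2 cells, against 0.0955 and 99.9 CPM in empty-vector cells (log2 difference 7.01 ± 2.31, adjusted p = 0.0666). Elane, neutrophil elastase, also named after its values were seen, had 1861 and 871 CPM in MOZ-TIF2 cells, against 0 and 24.7 CPM in empty-vector cells (log2 difference 6.78 ± 2.07, adjusted p = 0.054). Neither gene's groups overlapped, but replicate 2 of the empty vector lay far above replicate 1 for both. With 1 library left out in turn the adjusted p ran from 0.00194 to 0.138 for Mpo and from 0.00301 to 0.122 for Elane, and both passed without either empty-vector library. DESeq2 called both (adjusted p = 0.00564 for Mpo and 0.0259 for Elane), as did edgeR with no filter (0.0237 for Mpo and 0.0171 for Elane). A set of 56 genes was taken at 50 CPM or more in MOZ-TIF2 cells and more than 5 log2 units higher there. It holds genes called higher, with Mpo and Elane added by name, and leaves out other genes not called. Of the 56, 44 had a higher level in replicate 2 of the empty vector than in replicate 1. The part of this replicate difference in the tests was not tested. Fresh cells had 4510.0 and 6180.1 CPM of Mpo, 886 and 1348 CPM of Elane and 733 and 979 CPM of Prtn3, so the MOZ-TIF2 levels of these genes lay within a few fold of those in uncultured progenitors.

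**Figure D2:**
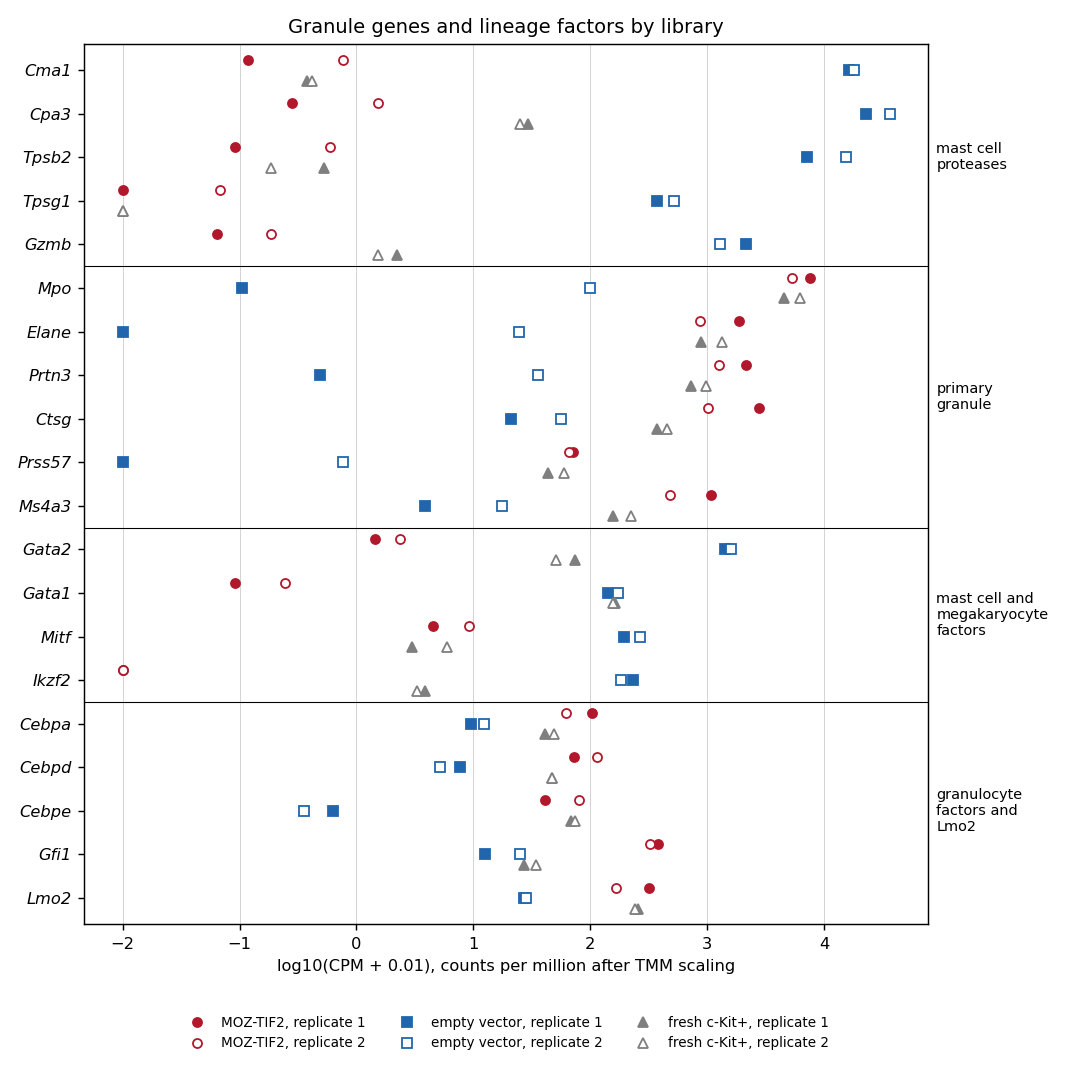
Levels of granule genes and lineage factors in each library, as log10(CPM + 0.01), with filled symbols for replicate 1 and open symbols for replicate 2. Mast cell proteases sit at the left for MOZ-TIF2 (circles) and at the right for empty vector (squares), primary granule genes the other way round, and the empty-vector squares of Mpo, Elane and Prtn3 are far apart; triangles are fresh c-Kit+ cells.

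Several granule genes of each kind changed together, and Ty1 peaks of the fusion protein lay at some of them. Sequences before the starts of 6 genes are therefore shown, of granule genes (Ctsg, Prtn3, Elane and Cpa3), a receptor (Fcer1a) and a regulator (Gfi1). They are the 250 bases before the annotated start, from RefSeq on GRCm38.p6, 5′ to 3′ on the gene's own strand. Capitals mark matches, on either strand, to the letters AGATAA and the like run TGATAA (both of GATA factors), to TTNNGCAA (C/EBP factors) and to GAGGAA (the core of PU.1 and other ETS sites, a motif added after the values were seen). No match shown overlaps another. Cpa3 is at chr3:20242182-20242431 (minus strand), Fcer1a at chr1:173227230-173227479 (minus), Ctsg at chr14:56102575-56102824 (minus), Prtn3 at chr10:79879417-79879666 (plus), Elane at chr10:79886062-79886311 (plus) and Gfi1 at chr5:107725806-107726055 (minus).
Ctsg: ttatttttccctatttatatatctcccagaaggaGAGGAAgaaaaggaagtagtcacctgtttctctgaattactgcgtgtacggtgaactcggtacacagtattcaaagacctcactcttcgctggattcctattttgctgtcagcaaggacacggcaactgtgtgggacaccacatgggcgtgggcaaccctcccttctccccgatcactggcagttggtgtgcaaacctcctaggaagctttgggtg
Prtn3: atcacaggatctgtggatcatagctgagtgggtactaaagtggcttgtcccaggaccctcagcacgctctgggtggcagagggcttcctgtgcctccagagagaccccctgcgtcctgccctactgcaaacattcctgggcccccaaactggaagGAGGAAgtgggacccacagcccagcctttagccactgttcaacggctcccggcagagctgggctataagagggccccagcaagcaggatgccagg
Elane: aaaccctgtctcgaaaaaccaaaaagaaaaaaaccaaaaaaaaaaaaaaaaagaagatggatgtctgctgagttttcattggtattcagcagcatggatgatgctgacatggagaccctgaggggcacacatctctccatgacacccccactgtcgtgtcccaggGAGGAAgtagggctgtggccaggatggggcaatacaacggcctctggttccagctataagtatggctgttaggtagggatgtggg
Gfi1: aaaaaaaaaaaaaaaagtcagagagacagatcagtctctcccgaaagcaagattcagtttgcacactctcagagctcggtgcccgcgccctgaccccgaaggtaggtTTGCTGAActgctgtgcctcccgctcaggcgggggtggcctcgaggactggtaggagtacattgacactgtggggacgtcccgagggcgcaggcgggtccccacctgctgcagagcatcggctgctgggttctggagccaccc
Cpa3: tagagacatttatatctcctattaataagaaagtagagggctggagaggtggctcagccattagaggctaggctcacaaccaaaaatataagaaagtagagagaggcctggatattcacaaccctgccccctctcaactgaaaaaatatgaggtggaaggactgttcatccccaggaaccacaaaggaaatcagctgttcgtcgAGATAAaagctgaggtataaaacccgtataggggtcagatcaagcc
Fcer1a: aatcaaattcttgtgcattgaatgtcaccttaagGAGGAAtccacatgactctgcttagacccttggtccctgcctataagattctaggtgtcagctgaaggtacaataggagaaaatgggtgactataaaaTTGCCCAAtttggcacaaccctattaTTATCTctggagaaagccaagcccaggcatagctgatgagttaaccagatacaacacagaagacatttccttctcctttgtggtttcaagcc

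In Cpa3 a GATA match begins 46 bases before the start, and in Fcer1a 1 match of each kind was found, the GATA and C/EBP matches on the opposite strand. Prtn3 and Elane, neighbouring genes, each hold 1 ETS match, 95 and 85 bases before the start, and Ctsg holds one 216 bases before it. Gfi1 holds a C/EBP match and neither of the others. All 6 sequences shown hold a match, while those of Cma1, Gata2 and Ms4a3, searched in the same way, hold none. Of 27025 promoters in the table, 17.0% hold a GATA match, 9.55% a C/EBP match and 23.1% an ETS match. A GATA match was found in 4 of 7 mast cell proteases with a sequence (Cpa3, Mcpt4, Prss34 and Tpsg1) and in 0 of 14 primary granule genes. An ETS match was found in 2 of those 7 and in 8 of those 14, among them Mpo, Elane, Prtn3 and Ctsg, and a C/EBP match in 0 and 1. Mast cell receptors held a GATA match in 7, an ETS match in 8 and a C/EBP match in 3 of 19. Late neutrophil genes held a GATA match in 5, an ETS match in 11 and a C/EBP match in 9 of 21. Granulocyte regulators held 0, 1 and 1 of 14 in that order, and regulators of mast cell, erythroid and megakaryocyte fate 2, 4 and 2 of 12. A match is a run of letters and not a shown binding site.

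Mast cell mediators and receptors fell with the proteases. Of 20 tested genes that make or store histamine, serotonin, heparin and eicosanoids, 15 fell and 2 rose (Ptges and Lta4h). Slc18a2, the vesicle transporter for histamine and serotonin, had 0.0546 and 0 CPM in MOZ-TIF2 cells, against 1265 and 1178 CPM in empty-vector cells. The empty-vector level of Slc18a2 was higher by a ratio of 43050 (counting interval 11920 to 355500). Ndst2, an enzyme of heparin sulfation, had 17.2 and 26.4 CPM in MOZ-TIF2 cells, against 561 and 675 CPM in empty-vector cells (log2 difference -4.82 ± 0.32, adjusted p = 0.000466). Alox5, which begins leukotriene synthesis, had 34.5 and 61.6 CPM in MOZ-TIF2 cells, against 2319 and 2957 CPM in empty-vector cells (log2 difference -5.78 ± 0.42, adjusted p = 0.000586). Ndst2 and Alox5 thus stayed well above 0 in MOZ-TIF2 cells, where the proteases Cma1, Cpa3, Tpsb2 and Gzmb did not. Ptgs1, a prostaglandin synthase, did not pass, with 207 and 229.9 CPM in MOZ-TIF2 cells, against 219.8 and 213 CPM in empty-vector cells.

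Of 23 mast cell receptors and proximal signalling genes, 20 fell and none rose, with a median of -7.25. Fcer1a, the IgE-binding chain of the high-affinity IgE receptor, had 0.0273 and 0.204 CPM in MOZ-TIF2 cells, against 4299 and 3683 CPM in empty-vector cells (log2 difference -15.04 ± 0.80, adjusted p = 0.000313). Il1rl1, the interleukin-33 receptor, had 0.164 and 0.350 CPM in MOZ-TIF2 cells, against 6172 and 7383 CPM in empty-vector cells (log2 difference -14.67 ± 0.59, adjusted p = 0.000212). Lat, an adaptor of IgE receptor signalling, had 0.983 and 1.02 CPM in MOZ-TIF2 cells, against 160.0 and 198 CPM in empty-vector cells (log2 difference -7.47 ± 0.34, adjusted p = 0.00028). None of these 3 exceeded 1.02 CPM in a MOZ-TIF2 library. Kit, the receptor on which the cells were first isolated, had 41.0 and 29.0 CPM in MOZ-TIF2 cells, against 4269 and 4003 CPM in empty-vector cells (log2 difference -6.89 ± 0.39, adjusted p = 0.000318). Fresh cells lay between the groups, at 138 and 181 CPM of Kit. Syk, a kinase shared with other blood cells, did not pass, with 125 and 257 CPM in MOZ-TIF2 cells, against 247 and 199 CPM in empty-vector cells.

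Of 15 tested transcription regulators of mast cell, erythroid and megakaryocyte fate, 11 fell and 1 rose, and without empty-vector replicate 1 the falls numbered 7. Gata2 had 1.42 and 2.36 CPM in MOZ-TIF2 cells, against 1410.2 and 1602 CPM in empty-vector cells (log2 difference -9.63 ± 0.48, adjusted p = 0.000313). Gata1 had 0.0819 and 0.233 CPM in MOZ-TIF2 cells, against 143 and 174 CPM in empty-vector cells (log2 difference -9.94 ± 0.46, adjusted p = 0.00028). Mitf, which drives mast cell genes, had 4.48 and 9.19 CPM in MOZ-TIF2 cells, against 193 and 264 CPM in empty-vector cells (log2 difference -5.06 ± 0.53, adjusted p = 0.0017). The GATA genes kept at most 2.36 CPM in a MOZ-TIF2 library, and Mitf somewhat more. Ikzf2, the factor Helios, had no count in MOZ-TIF2 cells, against 230.4 and 184 CPM in empty-vector cells, at least 4900-fold lower. The gene that rose was Lmo2, an adaptor that joins GATA and TAL1 factors, with 321 and 165 CPM in MOZ-TIF2 cells, against 27.3 and 28.0 CPM in empty-vector cells (log2 difference 3.13 ± 0.36, adjusted p = 0.00236). Its fresh level, 256 and 240.0 CPM, was like that of MOZ-TIF2 cells. Lyl1, a TAL1 relative, did not pass, with 176 and 178 CPM in MOZ-TIF2 cells, against 154 and 146 CPM in empty-vector cells.

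Of 22 regulators of granulocyte and monocyte fate, 9 rose and 7 fell, with a median of -0.24 that changed sign, to 0.03, with library totals as the scaling and, to 0.16 and 0.19, without replicate 1 of MOZ-TIF2 or of the empty vector. It was -1.24 without MOZ-TIF2 replicate 2. The risers were Cebpa, Cebpb, Cebpd, Cebpe, Gfi1, Spi1, Etv6, Myb and Id1. The call on Spi1, which encodes PU.1, was lost in 4 of 6 refits without 1 library (adjusted p up to 0.0865) and that on Myb without either empty-vector library (adjusted p up to 0.0678). Cebpe, needed for the later granules of neutrophils, had 41.0 and 80.1 CPM in MOZ-TIF2 cells, against 0.621 and 0.346 CPM in empty-vector cells (log2 difference 6.99 ± 0.50, adjusted p = 0.00057). Cebpd had 71.9 and 114 CPM in MOZ-TIF2 cells, against 7.74 and 5.22 CPM in empty-vector cells (log2 difference 3.85 ± 0.34, adjusted p = 0.00097). Cebpa, which starts the granulocyte program, had 104 and 61.7 CPM in MOZ-TIF2 cells, against 9.46 and 12.4 CPM in empty-vector cells (log2 difference 2.92 ± 0.33, adjusted p = 0.00217). The replicates of each group were within a few fold of each other for all 3, far closer than the groups. Gfi1, a repressor needed for neutrophils, had 379 and 322 CPM in MOZ-TIF2 cells, against 12.7 and 25.1 CPM in empty-vector cells (log2 difference 4.21 ± 0.40, adjusted p = 0.0012), above the 27.2 and 34.6 CPM of fresh cells. Cebpg, a C/EBP family member with broad expression, did not pass, with 46.0 and 76.0 CPM in MOZ-TIF2 cells, against 57.0 and 76.7 CPM in empty-vector cells. Among the falls, Id2, an inhibitor of helix-loop-helix factors, had 3.66 and 9.07 CPM in MOZ-TIF2 cells, against 456 and 417 CPM in empty-vector cells (log2 difference -6.10 ± 0.51, adjusted p = 0.00083). Runx1, a core blood factor, had 61.4 and 78.6 CPM in MOZ-TIF2 cells, against 546 and 517 CPM in empty-vector cells (log2 difference -2.93 ± 0.23, adjusted p = 0.000749).

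Late neutrophil genes rose in 9 of 22 tested members and fell in none, with a median of 3.20 (1.25 without MOZ-TIF2 replicate 2), but the MOZ-TIF2 libraries differed from each other. Padi4, a histone-citrullinating enzyme of neutrophils, had 75.4 and 173 CPM in MOZ-TIF2 cells, against 0.955 and 0.968 CPM in empty-vector cells (log2 difference 7.01 ± 0.51, adjusted p = 0.000586). S100a8, a chain of calprotectin, had 312 and 983 CPM in MOZ-TIF2 cells, against 21.4 and 19.7 CPM in empty-vector cells (log2 difference 4.98 ± 0.62, adjusted p = 0.00315). S100a9, its partner, had 277 and 1148 CPM in MOZ-TIF2 cells, against 12.3 and 17.4 CPM in empty-vector cells (log2 difference 5.58 ± 0.77, adjusted p = 0.00443). Both calprotectin chains were far below the fresh level, 3992 and 3748 CPM for S100a8 and 5259.5 and 4739 CPM for S100a9. Olfm4, of specific granules, had 7.07 and 200.0 CPM in MOZ-TIF2 cells, against 0.287 and 0.173 CPM in empty-vector cells (log2 difference 8.83 ± 1.82, adjusted p = 0.0163), and its call was lost without either empty-vector library (adjusted p up to 0.0888). Ngp, of specific granules and named after its values were seen, had 346 and 2382 CPM in MOZ-TIF2 cells, against 0.908 and 22.7 CPM in empty-vector cells (log2 difference 6.85 ± 1.73, adjusted p = 0.0304), and its call was lost without MOZ-TIF2 replicate 2 or either fresh library (adjusted p up to 0.0795). Ltf, lactoferrin, likewise named afterwards, was not called, with 26.1 and 391 CPM in MOZ-TIF2 cells, against 0.573 and 9.06 CPM in empty-vector cells. DESeq2 called Ltf higher (adjusted p = 0.00536), as did edgeR with no filter (adjusted p = 0.018). MOZ-TIF2 replicate 2 was the higher library for each of these 6 genes. Without replicate 1 of MOZ-TIF2, 15 members were called higher. Without replicate 2, 7 were called higher and 4 lower, and without fresh replicate 2, 6 were called higher. Itgam, the integrin CD11b, did not pass, with 163 and 555 CPM in MOZ-TIF2 cells, against 178 and 129 CPM in empty-vector cells.

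**Figure D3:**
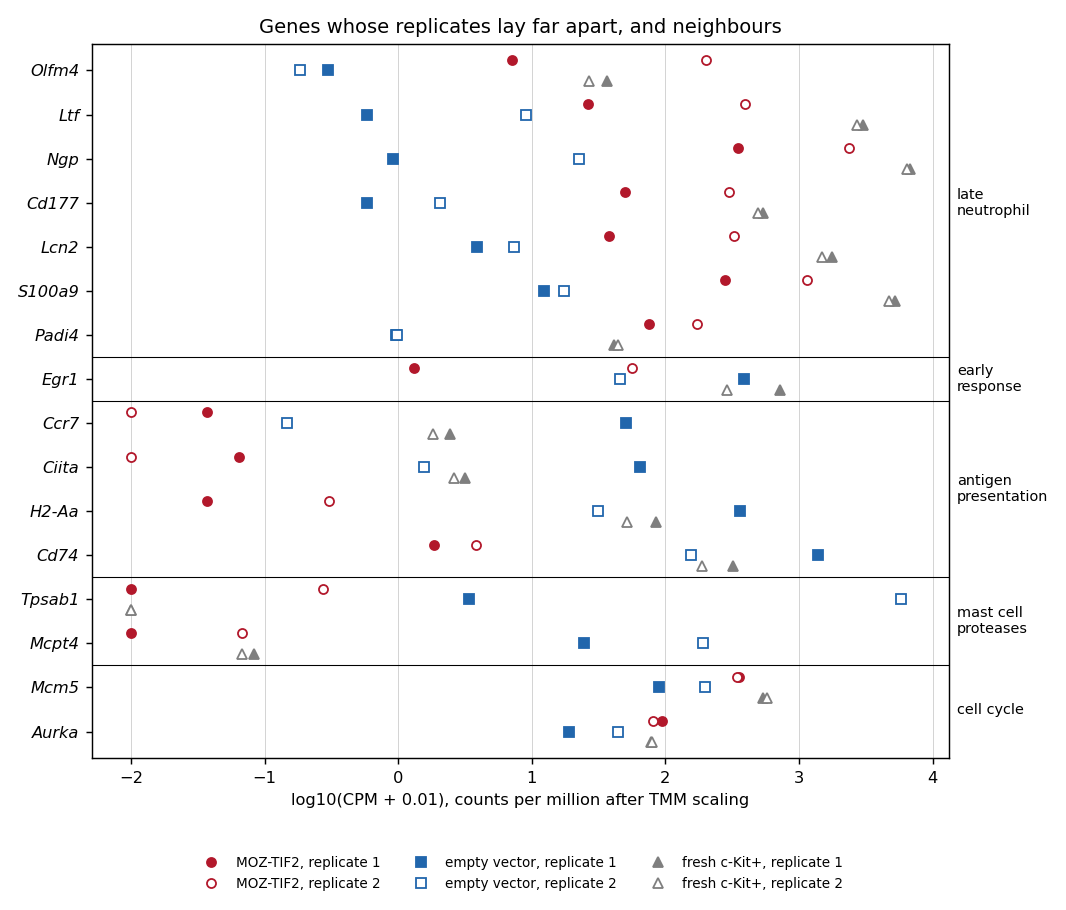
Levels of genes whose replicates lay far apart, and of members of the same lists, in each library as log10(CPM + 0.01); filled symbols are replicate 1, open symbols replicate 2, circles MOZ-TIF2, squares empty vector and triangles fresh c-Kit+ cells. Olfm4, Ltf and Ngp are higher in MOZ-TIF2 replicate 2, Ccr7, Ciita, H2-Aa and Cd74 in empty-vector replicate 1, and Tpsab1 and the cell-cycle genes in empty-vector replicate 2.

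Macrophage and antigen presentation genes were lower. Genes of monocytes and macrophages fell in 11 of 24 tested members and rose in 1. C1qa, C1qb and C1qc, the chains of complement C1q, had no count in MOZ-TIF2 cells. In empty-vector cells C1qa had 80.2 and 61.7 CPM, C1qb had 109 and 79.3 CPM and C1qc had 77.4 and 59.4 CPM. Cx3cr1, the fractalkine receptor, had 0.300 and 0.0875 CPM in MOZ-TIF2 cells, against 140.2 and 339.8 CPM in empty-vector cells (log2 difference -10.22 ± 0.76, adjusted p = 0.000623). The gene that rose was Ly6c2, of monocytes and granulocyte-monocyte progenitors, with 514 and 306 CPM in MOZ-TIF2 cells, against 9.60 and 16.3 CPM in empty-vector cells (log2 difference 4.98 ± 0.44, adjusted p = 0.00097).

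Of 11 genes of MHC class II presentation, 9 fell and none rose, with a median of -5.57. Cd74, the invariant chain, had 1.86 and 3.82 CPM in MOZ-TIF2 cells, against 1379 and 154 CPM in empty-vector cells (log2 difference -8.08 ± 1.26, adjusted p = 0.00688). H2-Aa, an alpha chain, had 0.0273 and 0.292 CPM in MOZ-TIF2 cells, against 359 and 31.3 CPM in empty-vector cells (log2 difference -10.24 ± 1.64, adjusted p = 0.00744). Replicate 1 of the empty vector was about an order of magnitude above replicate 2 for both, and the groups did not overlap. Ccr7, a homing receptor of mature dendritic cells, had 0.0273 and 0 CPM in MOZ-TIF2 cells, against 50.6 and 0.138 CPM in empty-vector cells. Its call (adjusted p = 0.0421) was lost without any 1 library other than empty-vector replicate 2 (adjusted p up to 0.162), as was that of Zbtb46, a dendritic cell factor with 0.0546 and 0.146 CPM in MOZ-TIF2 cells, against 8.50 and 0.277 CPM in empty-vector cells (adjusted p = 0.0492, up to 0.226). The summed level of 4 dendritic cell markers was 0.273 and 0.700 CPM in MOZ-TIF2 cells, against 8.93 and 0.415 CPM in empty-vector cells. Their part in the MHC class II differences was not tested.

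Megakaryocyte and stem cell genes were also lower than in empty-vector cells, whose summed marker levels lay above those of fresh cells. The 4 megakaryocyte markers summed to 1788 and 1804 CPM in empty-vector cells and 329.9 and 216.2 CPM in fresh cells. Itga2b alone gave 1759.8 and 1764 CPM of the empty-vector sum, which thus does not speak for the other markers. The 5 stem and progenitor markers summed to 1430 and 1630 CPM in empty-vector cells and 164.1 and 145.3 CPM in fresh cells. Of that empty-vector sum, Cd34 gave 437 and 1100.2 CPM. In MOZ-TIF2 cells the sums were 2.95 and 2.54 CPM for megakaryocyte and 16.2 and 12.3 CPM for stem and progenitor markers. Of 14 tested megakaryocyte genes, 8 fell and none rose. Itga2b, the integrin CD41, had 0.273 and 0.525 CPM in MOZ-TIF2 cells, against 1759.8 and 1764 CPM in empty-vector cells (log2 difference -12.10 ± 0.55, adjusted p = 0.00028). Gp1ba, a chain of the von Willebrand factor receptor, had 0.0546 and 0.117 CPM in MOZ-TIF2 cells, against 413 and 607 CPM in empty-vector cells (log2 difference -12.47 ± 0.48, adjusted p = 0.000212). Gp9, of the same receptor, did not pass, with 2.02 and 1.02 CPM in MOZ-TIF2 cells, against 0.860 and 1.62 CPM in empty-vector cells. So 1 chain of that receptor was abundant in empty-vector cells and another low in both groups. Of 21 tested stem and progenitor genes, 11 fell and 3 rose (Lmo2, Myb and Sox4). Cd34 had 4.97 and 2.98 CPM in MOZ-TIF2 cells, against 437 and 1100.2 CPM in empty-vector cells (log2 difference -7.59 ± 0.63, adjusted p = 0.00082). Erg, a stem cell ETS factor, had 1.37 and 0.554 CPM in MOZ-TIF2 cells, against 69.8 and 55.1 CPM in empty-vector cells (log2 difference -6.01 ± 0.47, adjusted p = 0.00068). Mycn, a MYC relative, had no count in MOZ-TIF2 cells, against 20.8 and 20.0 CPM in empty-vector cells.

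Of 16 erythroid genes 7 fell and 1 rose, so 50% were called, against 29.5% of all tested genes; the falls numbered 4 without MOZ-TIF2 replicate 2 and 10 without empty-vector replicate 2. The riser was Tfrc, the transferrin receptor, with 424 and 328 CPM in MOZ-TIF2 cells, against 104 and 53.8 CPM in empty-vector cells (log2 difference 2.25 ± 0.38, adjusted p = 0.00865). Of 10 eosinophil genes Ear2, Il5ra and Ccr3 fell, and 6 fell without empty-vector replicate 2 and 5 by DESeq2. Of 14 B-lymphoid genes Cd79b and Igll1 rose and Blnk and Il7r fell. Of 15 T and NK cell genes Cd3d and Lck rose and Ncr1 fell. Calls made up 30% of the eosinophil, 28.6% of the B-lymphoid and 20% of the T and NK cell genes, near or under the 29.5% of all tested genes. Without either fresh library none of the lymphoid risers was called, and the call on Ncr1 was lost in all 6 refits without 1 library (adjusted p 0.0774 to 0.117). Of the risers, Igll1 and Cd3d were lost in 5 of the 6 refits and Lck in 4.

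Growth factor receptors mostly fell. Of 26 tested, 15 fell and 5 rose (Csf3r, Csf2ra, Il6ra, Ifngr1 and Ifngr2), with a median of -2.21 (-3.65 without MOZ-TIF2 replicate 2). Il4ra, the interleukin-4 receptor, had 63.1 and 59.0 CPM in MOZ-TIF2 cells, against 1535 and 1469.6 CPM in empty-vector cells (log2 difference -4.62 ± 0.25, adjusted p = 0.000313). Tgfbr1, a TGF-beta receptor, had 47.4 and 62.7 CPM in MOZ-TIF2 cells, against 880.3 and 1047 CPM in empty-vector cells (log2 difference -4.13 ± 0.33, adjusted p = 0.000708). Csf2rb2, a beta chain used by the interleukin-3 receptor in mice, had 30.9 and 61.6 CPM in MOZ-TIF2 cells, against 12524 and 9563 CPM in empty-vector cells (log2 difference -7.90 ± 0.54, adjusted p = 0.000507). The groups did not overlap for these 3, though MOZ-TIF2 replicate 2 had clearly more Csf2rb2 than replicate 1. Csf3r, the G-CSF receptor, named with Csf2ra after the values were seen, had 42.7 and 79.4 CPM in MOZ-TIF2 cells, against 3.54 and 3.39 CPM in empty-vector cells (log2 difference 4.14 ± 0.36, adjusted p = 0.000917). Csf2ra, the GM-CSF receptor alpha chain, had 104 and 152 CPM in MOZ-TIF2 cells, against 21.6 and 18.7 CPM in empty-vector cells (log2 difference 2.67 ± 0.27, adjusted p = 0.00154). These receptors of granulocyte growth factors did not overlap between the groups, which held for 65% of all tested genes. Csf1r, the M-CSF receptor, did not pass, with 5.87 and 34.9 CPM in MOZ-TIF2 cells, against 94.2 and 90.3 CPM in empty-vector cells. DESeq2 called it lower (adjusted p = 0.0104), as did edgeR with no filter (adjusted p = 0.0282).

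Cytokines and chemokines fell in 13 of 23 tested members and rose in 1 (Vegfa), and 7 fell without either fresh library. Lif, of the interleukin-6 family, had 0.191 and 0.350 CPM in MOZ-TIF2 cells, against 96.4 and 94.5 CPM in empty-vector cells (log2 difference -8.44 ± 0.49, adjusted p = 0.000325). Ccl2, a monocyte attractant, had 1.07 and 0.583 CPM in MOZ-TIF2 cells, against 126 and 128 CPM in empty-vector cells (log2 difference -7.25 ± 0.73, adjusted p = 0.00154). Il13, a type 2 cytokine, had no count in MOZ-TIF2 cells, against 3.54 and 3.49 CPM in empty-vector cells. None of the 3 exceeded 1.07 CPM in a MOZ-TIF2 library. Tgfb1 did not pass, with 387 and 433 CPM in MOZ-TIF2 cells, against 608 and 709.9 CPM in empty-vector cells. Adhesion genes fell in 12 of 28 and rose in 3, among them Itga4 and Itgal, against 16.2% and 13.3% of all tested genes. The share that rose lay under that of all genes. Cd9, a tetraspanin, had 13.1 and 20.0 CPM in MOZ-TIF2 cells, against 502 and 448 CPM in empty-vector cells (log2 difference -4.84 ± 0.31, adjusted p = 0.000424). Pecam1, the adhesion molecule CD31, missed the threshold, with 102 and 7.96 CPM in MOZ-TIF2 cells, against 659 and 617 CPM in empty-vector cells (log2 difference -3.54 ± 1.06, adjusted p = 0.0501). MOZ-TIF2 replicate 1 was far above replicate 2 for Pecam1, and both lay below the empty vector. DESeq2 called Pecam1 lower (adjusted p = 0.0109), as did edgeR with no filter (adjusted p = 0.0172).

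DNA replication genes rose in 7 of 25 and mitosis genes in 6 of 24, with none lower, and medians of 0.97 and 1.12. These calls made up 28% and 25% of the lists. Of all tested genes 29.5% were called in either direction and 13.3% were called higher. Without empty-vector replicate 1 the medians were 0.51 and 0.67, and without replicate 2 they were 1.43 and 1.70. Cdc45, a helicase factor, had 81.5 and 80.0 CPM in MOZ-TIF2 cells, against 13.5 and 22.4 CPM in empty-vector cells (log2 difference 2.17 ± 0.28, adjusted p = 0.00352). Orc1, of the origin recognition complex, had 20.7 and 18.9 CPM in MOZ-TIF2 cells, against 2.77 and 5.67 CPM in empty-vector cells (log2 difference 2.22 ± 0.40, adjusted p = 0.0103). Bub1, a spindle checkpoint kinase, had 131 and 102 CPM in MOZ-TIF2 cells, against 20.5 and 36.3 CPM in empty-vector cells (log2 difference 2.04 ± 0.33, adjusted p = 0.00805). In each of these 3, empty-vector replicate 2 lay above replicate 1 and both lay below MOZ-TIF2. Without empty-vector replicate 2, 16 replication and 19 mitosis genes were called higher, and without replicate 1, 5 and 2 were. Without either fresh library the counts were 3 and 2, and without MOZ-TIF2 replicate 1 and replicate 2 they were 5 and 4 and then 7 and 2. Mki67, the proliferation marker, did not pass, with 432 and 1087 CPM in MOZ-TIF2 cells, against 264 and 159 CPM in empty-vector cells. It was called higher by DESeq2 (adjusted p = 0.00498) and by edgeR with no filter (adjusted p = 0.0228).

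Of 22 regulators of the G1 phase, 7 fell and 2 rose, against 16.2% and 13.3% of all tested genes, so the share that rose lay under that of all genes. Ccnd2, cyclin D2, had 179.8 and 175 CPM in MOZ-TIF2 cells, against 1114 and 993 CPM in empty-vector cells (log2 difference -2.57 ± 0.23, adjusted p = 0.00097). Ccnd1, cyclin D1, had 0.410 and 0.263 CPM in MOZ-TIF2 cells, against 55.5 and 13.9 CPM in empty-vector cells (log2 difference -6.66 ± 0.81, adjusted p = 0.00297). Cdk2, the kinase of the G1 to S step, rose, with 102 and 126 CPM in MOZ-TIF2 cells, against 42.9 and 44.8 CPM in empty-vector cells (log2 difference 1.37 ± 0.21, adjusted p = 0.00662). Ccnd1 and Ccnd2 thus differed in direction from Cdk2, and Ccnd3, the other D cyclin of the list, was not called. Cdk6, the kinase partner of D cyclins, did not pass, with 405 and 501 CPM in MOZ-TIF2 cells, against 402 and 363 CPM in empty-vector cells. Cdkn2a, an INK4 inhibitor named after its values were seen, had 0.410 and 3.68 CPM in MOZ-TIF2 cells, against 91.6 and 34.8 CPM in empty-vector cells (log2 difference -4.95 ± 1.04, adjusted p = 0.0174), and the call was lost without empty-vector replicate 1 or fresh replicate 2 (adjusted p up to 0.0681). In the MYC network 4 of 13 rose and 2 fell, and 1 rose without empty-vector replicate 1 or a fresh library and 2 without MOZ-TIF2 replicate 2. Myc itself had 191 and 288 CPM in MOZ-TIF2 cells, against 46.9 and 112 CPM in empty-vector cells (log2 difference 1.59 ± 0.45, adjusted p = 0.0427), a call lost without any 1 library other than empty-vector replicate 2 (adjusted p up to 0.119). Mxd4, a MYC antagonist, had 51.3 and 47.6 CPM in MOZ-TIF2 cells, against 229 and 195 CPM in empty-vector cells (log2 difference -2.10 ± 0.21, adjusted p = 0.00164). Of the 13 network genes 46.2% were called in the fit with every library, against 29.5% of all tested genes.

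Ribosome biogenesis genes rose in 12 of 24 and fell in none, with a median of 1.21 (0.72 without MOZ-TIF2 replicate 1). Nop56, of the box C/D ribonucleoprotein, had 272 and 193 CPM in MOZ-TIF2 cells, against 52.1 and 65.3 CPM in empty-vector cells (log2 difference 1.99 ± 0.27, adjusted p = 0.00405). Wdr12, a large-subunit assembly factor, had 126 and 81.7 CPM in MOZ-TIF2 cells, against 24.8 and 33.1 CPM in empty-vector cells (log2 difference 1.84 ± 0.28, adjusted p = 0.00657). Replicate 1 was the higher MOZ-TIF2 library and the lower empty-vector library for both. Without empty-vector replicate 1, 3 members were called, without either fresh library 6, without MOZ-TIF2 replicate 1, 7, and without MOZ-TIF2 replicate 2, 19. Ddx21, a nucleolar helicase, did not pass, with 328 and 199.6 CPM in MOZ-TIF2 cells, against 161 and 189.5 CPM in empty-vector cells.

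Serine, one-carbon and nucleotide synthesis genes rose in 15 of 23 and fell in none, with a median of 1.15. Shmt1, a cytosolic serine hydroxymethyltransferase, had 70.4 and 79.5 CPM in MOZ-TIF2 cells, against 6.40 and 15.0 CPM in empty-vector cells (log2 difference 2.81 ± 0.41, adjusted p = 0.00545). Shmt2, its mitochondrial relative, had 306 and 467 CPM in MOZ-TIF2 cells, against 63.1 and 111 CPM in empty-vector cells (log2 difference 2.15 ± 0.36, adjusted p = 0.00874). Psph, the last enzyme of serine synthesis, had 48.4 and 75.4 CPM in MOZ-TIF2 cells, against 11.0 and 18.3 CPM in empty-vector cells (log2 difference 2.08 ± 0.34, adjusted p = 0.00821). The groups did not overlap for these genes, and replicate 2 was the higher library in both groups. Phgdh, the first enzyme, had 309 and 413 CPM in MOZ-TIF2 cells, against 9.32 and 49.1 CPM in empty-vector cells (log2 difference 3.62 ± 0.76, adjusted p = 0.0169), and its call was lost without either fresh library (adjusted p up to 0.0522). Without either fresh library 4 members of the list were called, without empty-vector replicate 1, 6, and without MOZ-TIF2 replicate 1, 7.

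Amino acid supply genes rose in 10 of 20 and fell in none, with a median of 1.57. Bcat1, a cytosolic branched-chain aminotransferase, had 43.1 and 66.0 CPM in MOZ-TIF2 cells, against 0 and 0.138 CPM in empty-vector cells (log2 difference 9.36 ± 0.74, adjusted p = 0.000703), and fresh cells had 7.67 and 8.61 CPM. Bcat2, its mitochondrial relative, had 96.1 and 113 CPM in MOZ-TIF2 cells, against 35.7 and 37.1 CPM in empty-vector cells (log2 difference 1.52 ± 0.19, adjusted p = 0.00319). The cytosolic form was well seen in MOZ-TIF2 cells and nearly absent from empty-vector cells, while the mitochondrial form was present in both groups. Atf4, the amino acid stress factor, had 426 and 509 CPM in MOZ-TIF2 cells, against 156 and 150.0 CPM in empty-vector cells (log2 difference 1.61 ± 0.23, adjusted p = 0.00545). Slc1a5, a glutamine carrier, had 164 and 240.1 CPM in MOZ-TIF2 cells, against 61.8 and 64.3 CPM in empty-vector cells (log2 difference 1.68 ± 0.24, adjusted p = 0.00538). Chac1, an ATF4 target, had 6.80 and 27.0 CPM in MOZ-TIF2 cells, against 0.191 and 0.518 CPM in empty-vector cells (log2 difference 5.52 ± 0.91, adjusted p = 0.00824). These were separate between the groups, though MOZ-TIF2 replicates of Chac1 were several fold apart. Leaving out either fresh library left 5 calls on this list. Slc3a2, a shared chain of amino acid carriers, did not pass, with 209 and 353 CPM in MOZ-TIF2 cells, against 465 and 829 CPM in empty-vector cells.

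Sterol genes rose in 11 of 22 and fell in none, with a median of 0.90, and 7 were called without empty-vector replicate 1. Fdps, farnesyl diphosphate synthase, had 565 and 721 CPM in MOZ-TIF2 cells, against 71.3 and 105 CPM in empty-vector cells (log2 difference 2.87 ± 0.30, adjusted p = 0.00168). Pmvk, phosphomevalonate kinase, had 69.4 and 56.2 CPM in MOZ-TIF2 cells, against 9.51 and 15.7 CPM in empty-vector cells (log2 difference 2.31 ± 0.30, adjusted p = 0.00368). The MOZ-TIF2 libraries lay above fresh cells as well, which had 52.4 and 44.1 CPM of Fdps and 30.2 and 27.5 CPM of Pmvk. Srebf2, the factor that drives the pathway, did not pass, with 357 and 452 CPM in MOZ-TIF2 cells, against 379.7 and 378 CPM in empty-vector cells.

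Fatty acid genes were mixed, 7 of 21 higher and 5 lower, and 2 to 4 were higher without a fresh or an empty-vector library. Elovl6, a fatty acid elongase, had 128 and 75.6 CPM in MOZ-TIF2 cells, against 19.6 and 14.0 CPM in empty-vector cells (log2 difference 2.60 ± 0.33, adjusted p = 0.0034). Abca1, a cholesterol exporter, had 1.39 and 2.74 CPM in MOZ-TIF2 cells, against 18.2 and 42.3 CPM in empty-vector cells (log2 difference -3.87 ± 0.57, adjusted p = 0.00561). Of 21 glycolysis and hypoxia genes, 9 rose and 2 fell, with 4 rising without either fresh library and 5 without empty-vector replicate 1. Egln3, an oxygen-sensing hydroxylase, had 94.5 and 316 CPM in MOZ-TIF2 cells, against 1.05 and 4.42 CPM in empty-vector cells (log2 difference 6.20 ± 0.92, adjusted p = 0.00575). Slc16a3, a lactate exporter, had 243 and 446 CPM in MOZ-TIF2 cells, against 44.3 and 86.0 CPM in empty-vector cells (log2 difference 2.40 ± 0.43, adjusted p = 0.0104). The glucose carrier Slc2a3 was lower, with 26.5 and 58.5 CPM in MOZ-TIF2 cells, against 161 and 229 CPM in empty-vector cells (log2 difference -2.20 ± 0.41, adjusted p = 0.012). So among carriers of the pathway the lactate exporter and a glucose importer were called in opposite directions. Calls made up 57.1% of the fatty acid list and 52.4% of the glycolysis and hypoxia list, against 29.5% of all tested genes.

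Of 24 lysosome genes 11 fell and 2 rose, and 7 fell without either fresh library. Ctsd, cathepsin D, had 1171 and 876 CPM in MOZ-TIF2 cells, against 5125 and 4550.5 CPM in empty-vector cells (log2 difference -2.24 ± 0.31, adjusted p = 0.00479). Among 17 BCL2 family genes Bcl2, Bcl2l1, Bad and Bcl2l11 fell and none rose, 23.5% called against 29.5% of all tested genes. The call on Bad was lost in all 6 refits without 1 library (adjusted p 0.0788 to 0.159) and that on Bcl2l11 in 4, and the falls numbered 2 without MOZ-TIF2 replicate 1, empty-vector replicate 1 or a fresh library and 7 without MOZ-TIF2 replicate 2. Bcl2 had 2.46 and 0.525 CPM in MOZ-TIF2 cells, against 208 and 201 CPM in empty-vector cells (log2 difference -7.09 ± 0.73, adjusted p = 0.00164). Mcl1, a related survival factor, did not pass, with 197 and 284 CPM in MOZ-TIF2 cells, against 369 and 368 CPM in empty-vector cells. Of 22 p53 targets 9 fell and none rose, and 5 fell without empty-vector replicate 1. Phlda3, an AKT inhibitor, had 1.45 and 0.933 CPM in MOZ-TIF2 cells, against 44.8 and 39.4 CPM in empty-vector cells (log2 difference -5.14 ± 0.44, adjusted p = 0.000908). Cdkn1a, the best known p53 target, did not pass, with 60.2 and 168 CPM in MOZ-TIF2 cells, against 349 and 203 CPM in empty-vector cells. Of 10 genes of the aryl hydrocarbon receptor pathway 6 fell. The receptor, Ahr, had 2.43 and 2.95 CPM in MOZ-TIF2 cells, against 137 and 166 CPM in empty-vector cells (log2 difference -5.82 ± 0.30, adjusted p = 0.000313). Of 22 immediate early genes 9 fell and 2 rose, and the falls numbered 4 or 5 without MOZ-TIF2 replicate 1, empty-vector replicate 1 or a fresh library. Calls made up 26.1% of 23 interferon genes and 30% of 20 Toll-like receptor genes, near the 29.5% of all tested genes. They made up 54.2% of the lysosome genes, 40.9% of the p53 targets, 60% of the aryl hydrocarbon receptor genes and 50% of the immediate early genes. Without either fresh library no interferon gene was called higher and no Toll-like receptor gene lower.

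**Figure D4:**
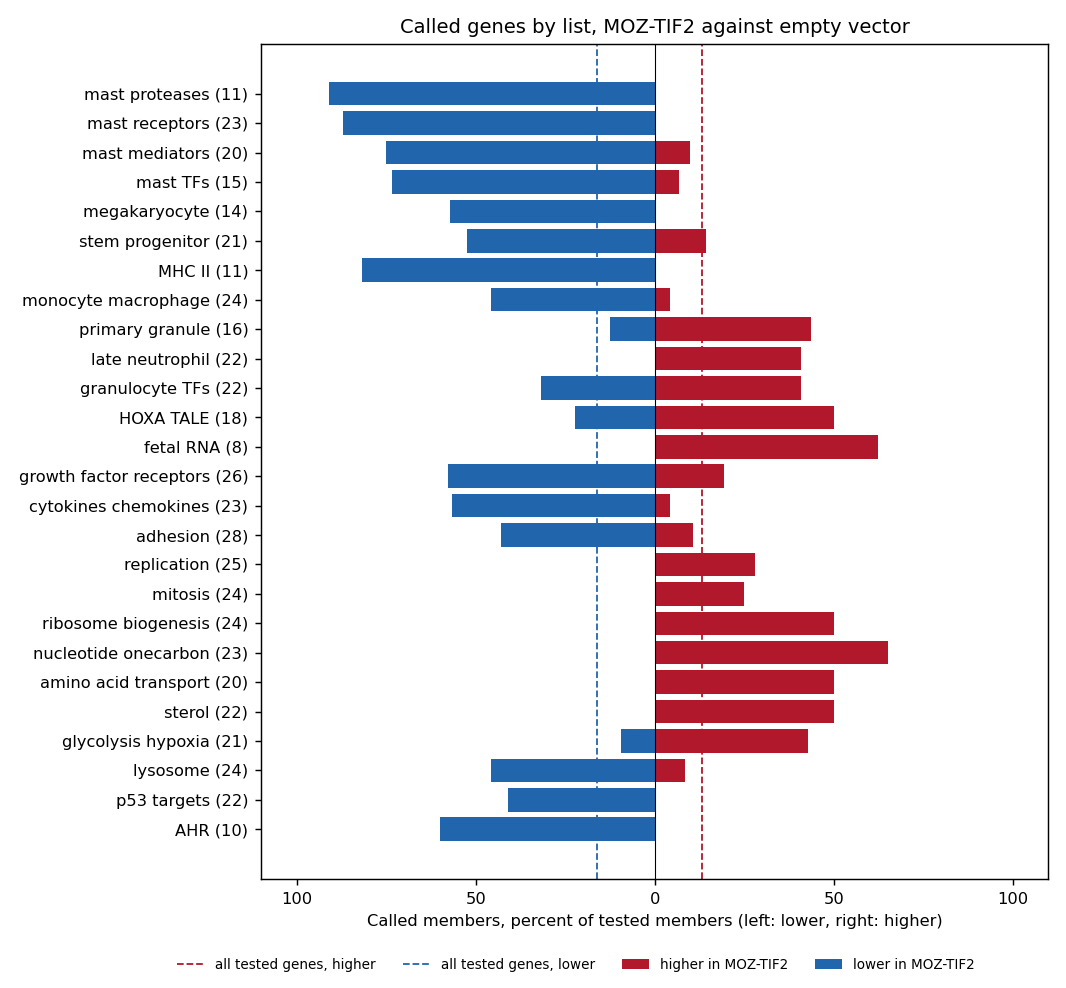
Called members of 26 gene lists as a percent of tested members (number in brackets), lower in MOZ-TIF2 to the left and higher to the right; dashed lines mark the percent of all tested genes called in that direction, 16.2% lower and 13.3% higher. Mast cell and MHC class II lists lie to the left, and ribosome, nucleotide, amino acid and sterol lists to the right.

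Peaks of the Ty1-tagged fusion were set beside these calls. They come from MOZ-TIF2 cells that had been replated in methylcellulose, and so not from the culture read here. The peak lists hold 3676 and 4564 intervals, and 3303 of the first list overlap the second by at least 1 base. The labels give the second sample the antibody number that the acetylated histone samples carry, so results are also given with replicate 1 alone. Of the tested genes 69.9% had a RefSeq start. A shared peak lay within 5 kb of a start for 30.3% of 1519 genes that rose, for 17.4% of 1888 that fell and for 27.9% of 7235 that were not called. These shares are descriptions with no test. The gene classes differ in level, with a median of 40.6 CPM for risers, 8.66 CPM for genes that fell and 24.0 CPM for the rest in MOZ-TIF2 cells. Among genes of 10 to 100 CPM there, the shares were 27.7% of risers, 29.4% of genes that fell and 31.1% of the rest. Above 100 CPM they were 60.1%, 52.3% and 65.2% in the same order. In these 2 ranges of MOZ-TIF2 level, risers did not stand above genes that were not called. The MOZ-TIF2 level is itself part of the comparison that made the classes, and levels in empty-vector cells were not matched. The part of level in the shares was thus not tested. With peaks of replicate 1 alone, the shares over all levels were 32.7%, 19.1% and 31.2%.

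**Figure D5:**
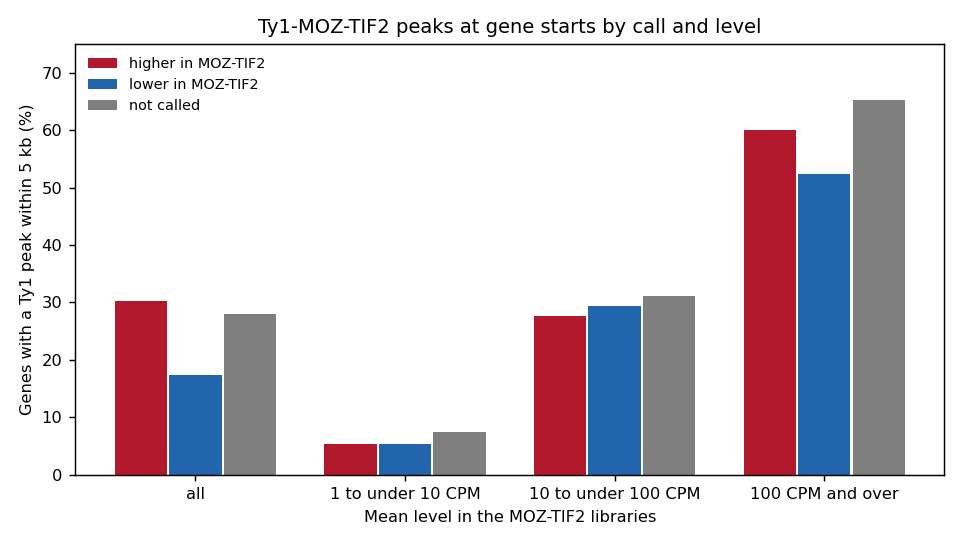
Percent of genes with a Ty1-MOZ-TIF2 peak within 5 kb of a start, for genes higher in MOZ-TIF2, lower in MOZ-TIF2 and not called, over all levels and by mean level in the MOZ-TIF2 libraries. The classes differ over all levels and lie close together, at 27.7%, 29.4% and 31.1%, between 10 and 100 CPM.

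Genes with such a peak were found in both directions. A peak of 11200 bases, at chr6:52215751-52226951 on GRCm38 as the authors list it, covered the start of Hoxa7 and reached to 419 bases from that of Hoxa9. A peak of 6050 bases covered the start of Hoxa10. One of 6150 bases covered the start of Meis1, which did not pass the test. Six4 and Gfi1 each had a peak over the start, and Cebpa had one 158 bases away. Of 14 primary granule genes with a start, 7 had a peak: Ctsg, Prtn3, Elane, Mpo, Plac8, Calr and Clec11a. Prtn3 and Elane shared one that lay 484 and 4061 bases from their starts. None of 7 mast cell proteases or of 21 late neutrophil genes had one. Counts by list were not matched for level. Of all genes not called, 65.2% at 100 CPM or more in MOZ-TIF2 cells had a peak, and 7.4% from 1 to under 10 CPM had one. Among genes that fell, Erg, Runx1 and Cbfa2t3 had one each within 5 kb, and Tal1 had a peak of 3150 bases over its start. The call on Tal1 was lost without any 1 empty-vector or fresh library (adjusted p up to 0.0604).

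Single MOZ-TIF2 cells of another culture, given DMSO for 1 day, offered a view of how widely these RNAs were spread. The table holds 883 cells with a median of 42565 unique molecular identifiers (UMIs) over 9448 listed genes, from 1 sample, with no doublet caller run, so values are descriptions, CPM over listed genes with exact Poisson intervals for counting error only. Prtn3 stood at 3405 CPM (3387 to 3423), Ctsg at 2993 CPM (2976 to 3010), Mpo at 1682 CPM (1669 to 1695) and Elane at 496 CPM (489 to 503). A UMI of Prtn3 was seen in 99.9% of cells and one of Mpo in 98.0%. Free RNA can give such UMIs, and no cell type that lacks these genes was at hand for a background. Late neutrophil genes varied widely in the share of cells with a UMI. Ngp was seen in 3.28% of cells (exact binomial interval 2.21 to 4.68%), Chil3 in 12.1%, Mmp8 in 25.7%, Lcn2 in 73.4% and S100a8 in 98.1%. Hoxa9 was at 199 CPM (194 to 203) and Igf2bp3 at 109.8 CPM (106 to 113), seen in 88.8% and 94.3% of cells. Of the 13 mast cell and basophil proteases 1 was among the listed genes, the basophil protease Mcpt8, at 16.9 CPM (15.6 to 18.2) and with a UMI in 37.5% of cells. Kit stood at 6.62 CPM (5.83 to 7.48).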

How the data were processed

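Per the labels' protocols, polyA RNA of 6 bulk samples was sequenced from strand-specific libraries. The deposited gene table holds the authors' estimated counts per gene (Salmon 0.13.0 and GRCm38, per the submitters' processing notes), which were rounded to whole numbers here. No column of the 35267-gene table was left aside (0 columns). The single-cell table holds deposited UMI counts (Cell Ranger 3.0.0 in the submitters' processing notes), no doublet caller was run on it, and no label says whether doublets were removed; the deposited Ty1 peak intervals give positions only, in a build taken from those notes; Bowtie2 is named there as well.

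Genes passing edgeR's filterByExpr (15224) were fitted with TMM scaling and edgeR's quasi-likelihood test over all 6 libraries, with Benjamini-Hochberg adjusted p-values over all tested genes and a threshold of 0.05 (R 4.3.3, edgeR 4.0.16, DESeq2 1.42.0, limma 3.58.1). The steps were run on simulated data with 197 genes changed 4-fold and a spread between replicates set lower than in these libraries. Of those genes 94.9% were called, with 5 false calls. This checks the steps and gives no error rate for these data. Peaks and promoter letters were searched in Python 3.11.15, and SciPy 1.17.1 gave exact intervals, at 95%, which cover counting error only. Library totals ran from 12397486 to 34463851 counts. The members and lists were chosen with earlier results of these data known. The genes given with values were 13 fixed names (such as Hoxa9, Meis1, Gata2 and Kit), the 12 largest called rises and 12 largest falls (10 CPM or more on average in the group with the higher level, and libraries that did not overlap), and from each list up to 6 called members with the smallest p and up to 2 of the most abundant not called; a gene outside this rule is said to be. Names with no value list a list's calls. Some genes of these lists are not reported here by name. The alternatives tried were another test, other scalings, no filter, 4 libraries only, a replicate block, 1 library left out, and other peak distances and sets.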

Additional observations from a re-analysis of the deposited data

How the results depend on the processing

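No called gene was called in the other direction under any alternative run. With 1 library left out, calls numbered 2411 to 4278 in all, 903 to 1883 higher and 1508 to 2395 lower, against 4486, 2023 and 2463 with every library. Calls numbered 5809 by DESeq2, 4478 with DESeq2's size factors in edgeR, 4495 with no filter and 3061 with the 4 libraries of the comparison only, where 1271 were higher. With library totals as the scaling 3053 were higher and 1994 lower. The replicate numbers are shared only as numbers, with correlations between same-numbered deviations of -0.093, -0.089 and -0.011 over 2 numbers; with the replicate number as a block, 3284 genes were called, 1355 higher and 1929 lower. Of 333 genes followed by name, 255 were called, and 189 of these were called in all 6 refits without 1 library while 66 were lost in at least 1. DESeq2 called 33 of the 333 that the main fit did not, among them Tpsab1, Slc3a2, Tgfb1 and Mcl1, and edgeR with no filter 18. The medians of the granulocyte factor, retinal network and MOZ complex lists, all near 0, changed sign with library totals. Ty1 peaks within 50 kb lay at 47.9% of genes that rose, 31.6% of genes that fell and 45.3% of those not called. With peaks of replicate 1 alone the shares within 5 kb were 32.7% of risers and 31.2% of genes not called, and with replicate 2 alone 39.4% of risers, 25.8% of genes that fell and 37.5% of genes not called. The causes of these shifts were not tested. With 2 libraries a group and 3 residual degrees of freedom, the adjusted p of a gene with unlike replicates can miss the threshold at a large difference, and genes without a count in a group have a lower bound in place of a fold.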
